A study of Mus musculus with 20 samples.

Results

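The genes described here encode subunits of the mitochondrial respiratory chain and of ATP synthase, and their mRNA levels were followed in the mouse uterus shortly before embryo attachment. Members were found by symbol (the Nduf, Sdh, Uqcr, Cox and Atp5 families), and 88 rows of the expression table had such a symbol. Of these, 80 had a mean of at least 1 TPM over the 20 libraries and were kept, out of 45777 rows in all: 35 genes of complex I, 4 of complex II, 8 of complex III, 15 of complex IV and 18 of complex V. Ndufa4, named for complex I, was counted with complex IV, of which its protein is a subunit. TPM is a transcript level corrected for length and scaled so that all genes of a library sum to nearly the same total (999989 to 999999 here). The members were thus selected on symbol and on mean TPM, which is given only as a description. Just inside the limit lay Cox6a2 at 1.33 TPM and Cox8b at 1.73 TPM, and just outside it lay the pseudogene Atp5pb-ps at 0.541 TPM. The other 7 rows left out were Cox8c, Cox7b2 and Atp5k-ps3, listed at 0 in every library, and 4 further Atp5k and Atp5l pseudogenes. The symbols do not reach every nuclear subunit: Cox4i1, Cox4i2, Ndufab1 and Cyc1, and the electron carrier Cycs, stood outside and are described among the neighbouring pathways.

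All 20 libraries came from wild-type B6D2F1 females of 8 to 12 weeks that had mated, and each held mRNA from 1 uterine horn taken at 18:00 on day 3.5 after mating. The 4 groups had 5 mice each. Control mice received neither RU486 nor cells. Mice of the implantation failure (IF) model received RU486, an antagonist of the progesterone and glucocorticoid receptors, under the skin at 3 mg/kg on the morning of day 3.5. PBMC mice received the same RU486 and, on day 1.5, an injection into the uterine horns of peripheral blood mononuclear cells from other females, cultured beforehand. PBMC-hCG mice differed from these in that the cells had been cultured with human chorionic gonadotropin at 5 IU/mL. Any hCG carried into the uterus with these cells cannot be told apart from an effect of hCG on the cells in culture. The sequenced groups hold no mice injected with medium alone, so the cells and the injection cannot be told apart in comparisons with IF. A uterine horn holds muscle, stroma, epithelium, vessels and blood together, and in such bulk RNA fewer cells of a type and less RNA per cell cannot be told apart.

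The respiratory chain passes electrons from NADH through complex I, or from succinate through complex II, to ubiquinone, then through complex III, cytochrome c and complex IV to oxygen. Complexes I, III and IV pump protons across the inner mitochondrial membrane, and complex V, the ATP synthase, lets them back through its membrane sector (Fo) to drive ATP synthesis in its head (F1). Most subunits are nuclear genes translated in the cytosol, and they are assembled with a few core subunits encoded by mitochondrial DNA. In the uterus, smooth muscle, glands and the stroma that prepares for the embryo all draw on this pathway.

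The 8 uterus markers checked were present in every library, among them Esr1 at 98.0 to 166 TPM and Myh11, of smooth muscle, at 460 to 639 TPM. Between mice of a group, log2 levels over all tested genes correlated at 0.961 to 0.992. A control library, replicate 2, stood apart in tissue markers. Its 10 adipose genes summed to 744 TPM against 16.8 to 51.7 TPM in the other control mice, with Adipoq, a fat cell hormone, at 42.1 TPM in it and at 0 in 3 of the other 4. Its 10 stroma markers summed to 6404 TPM, against at least 10690 TPM in the other control mice, and its 15 cell cycle genes to 141 TPM, against at least 439 TPM. IF replicate 5 and PBMC replicate 4 were also high in the adipose sum, at 203 TPM (other IF mice 25.7 to 41.7) and 85.9 TPM (other PBMC mice 38.5 to 41.4). Counts of members called are given below with and without control replicate 2.

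The members were among the well expressed genes of the uterus: 76 of 80 averaged over 30 TPM. The highest was Cox6c of complex IV at 929.6 TPM, followed by the ATP synthase beta subunit Atp5b at 724 TPM and the complex III hinge protein Uqcrh at 638 TPM. Within complex I, whose subunits are assembled in equal numbers, the level per length ran from 32.0 TPM for Ndufa11 to 309.8 TPM for Ndufa3, both small membrane arm subunits, with a median of 118 TPM. The 4 complex II genes lay close together, between 145 TPM for the iron-sulphur subunit Sdhb and 178 TPM for the membrane anchor Sdhc. Medians were 222 TPM in complex III, 385 TPM in complex IV and 340 TPM in complex V.

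The low end was made up of tissue-restricted isoforms and a pseudogene. Of the heart and skeletal muscle isoforms of complex IV, Cox6a2 averaged 1.33 TPM, Cox8b 1.73 TPM and Cox7a1 4.16 TPM. Their widely expressed partners Cox6a1, Cox8a and Cox7a2 averaged 417, 570.1 and 192 TPM. The isoform Cox6b2, known from testis, was higher than these muscle isoforms at 32.3 TPM, beside 547 TPM for Cox6b1. The pseudogene Atp5l2-ps averaged 5.17 TPM. Cox8b was listed at 0 in PBMC replicate 4 and was therefore not among the 18706 genes tested, which had values above 0 in all 20 libraries. The tests below cover the other 79 members.

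Summed over all 80 members, the 5 control mice stood at 20814, 16939, 20512, 20132 and 20704 TPM, and the IF mice at 18268, 18915, 15853, 19219 and 18797 TPM. PBMC mice stood at 18448, 18808, 18688, 18655 and 18751 TPM, and PBMC-hCG mice at 18082, 17838, 18188, 16708 and 18312 TPM. In 4 of the 5 control mice the sum lay above every treated mouse, while control replicate 2 lay below all but IF replicate 3 and PBMC-hCG replicate 4. The group means were 19820 ± 1632 (SD), 18211 ± 1362, 18670 ± 137 and 17826 ± 649 TPM (n = 5 each), that is 1.59% to 2.08% of all TPM in any 1 library. Relative to control, the mean sum differed by -8.12% in IF, by -5.80% in PBMC and by -10.1% in PBMC-hCG. Relative to IF, it differed by 2.52% in PBMC and by -2.11% in PBMC-hCG. By complex, the difference between IF and control ran from -5.07% for complex IV to -10.9% for complex I. Without control replicate 2 the IF difference was -11.3% for all members and -8.52% for complex IV, and without IF replicate 3 it was -5.15% and -1.84%. These sums were not tested.

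**Figure D1:**
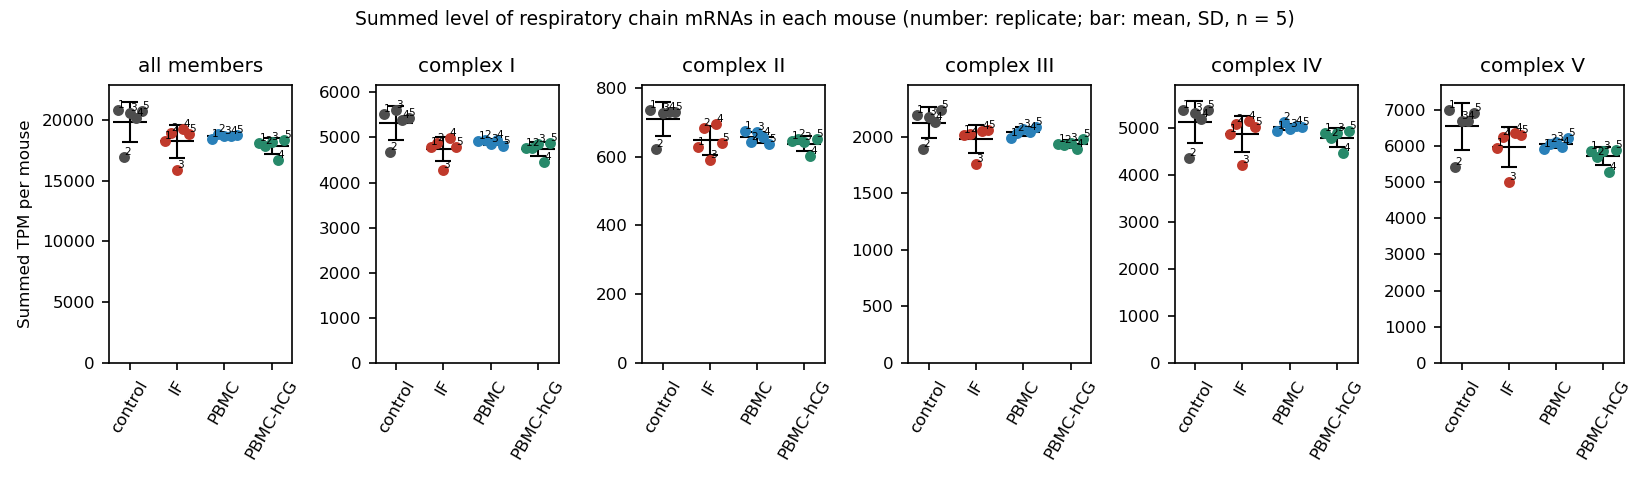
Summed TPM of all 80 members and of each complex in every mouse (points, numbered by replicate), with the group mean and SD (bars, n = 5). Control replicate 2, IF replicate 3 and PBMC-hCG replicate 4 lie below the rest of their groups, at 16939, 15853 and 16708 TPM for all members, and the 5 PBMC mice lie between 18448 and 18808 TPM.

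The comparison of IF with control asks what RU486 had done to these mRNAs by the evening of the same day. Members of complex I were lower in IF mice, by small amounts: 12 of 35 fell and none rose (limma, adjusted p under 0.05 over all genes tested), and all 35 had a negative log2 fold change, with a median of -0.16. Over all 79 members 15 fell (19.0%) and 0 rose, whereas 8.53% of all genes tested fell and 13.4% rose. The other 3 that fell were Sdhd of complex II, Uqcr11 of complex III and Atp5c1 of complex V, and none of the 14 complex IV members tested passed. The median over the members was -0.13, beside 0.022 over all genes tested, and it was -0.20 without control replicate 2 and -0.085 without IF replicate 3. At an unadjusted p under 0.05, 29 members were lower (36.7%, beside 14.2% of all genes) and 0 higher (beside 19.6%). No member met a 2-fold difference with an unadjusted p under 0.05. Of all genes 4.03% did so in IF versus control, 0.438% in PBMC versus IF, 2.31% in PBMC-hCG versus IF, 0.893% in PBMC-hCG versus PBMC, 3.34% in PBMC versus control and 4.74% in PBMC-hCG versus control, where 0 members did.

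Within complex I the call was spread over its parts. In the matrix arm, where NADH is oxidised and electrons run along iron-sulphur clusters, 3 of 7 core subunits fell (Ndufs7, Ndufs3 and Ndufv1), as did 5 of 9 accessory subunits (Ndufa5, Ndufa12, Ndufv3, Ndufs6 and Ndufs4). In the membrane arm, which pumps protons, 4 of 19 accessory subunits fell (Ndufb4, Ndufa8, Ndufc2 and Ndufb10).

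Ndufs7 (chr10:80249105-80256794, mm10), the core subunit with the last iron-sulphur cluster before ubiquinone, stood at 129.7, 130.1, 135, 124 and 119 TPM in the control mice. It stood at 101, 108, 102, 91.6 and 106 TPM in IF, 108, 118, 95.8, 111 and 87.6 TPM in PBMC and 112, 112, 105, 87.7 and 106 TPM in PBMC-hCG mice. Every control mouse lay above the other 15 mice, which no other member showed. Its level differed by -20.4% between IF and control (log2 fold change -0.33, SE 0.0791, adjusted p = 0.00569). Separation of this kind, all IF mice below all control mice, was seen for 4 members, all of complex I (Ndufs7, Ndufb5, Ndufb10 and Ndufb11), or 5.06% of members beside 4.27% of all genes.

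Among the accessory subunits, Ndufa12 stood at 112, 80.9, 104, 103 and 114 TPM in control and at 82.6, 81.6, 72.3, 84.6 and 89.8 TPM in IF mice. Only control replicate 2 reached into the IF range (log2 fold change -0.31, SE 0.0755, adjusted p = 0.00574). Ndufa5, another matrix arm subunit, stood at 128, 99.6, 124, 121 and 134 TPM in control and fell to 97.7, 113, 78.2, 102 and 97.0 TPM in IF mice (log2 fold change -0.32, SE 0.0827, adjusted p = 0.00926). Ndufb4, of the membrane arm, fell from 139 ± 15.6 to 114 ± 8.31 TPM (SD, n = 5, log2 fold change -0.28, SE 0.0719, adjusted p = 0.00866).

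Outside complex I, the largest fall that passed was that of Uqcr11 (chr10:80402997-80406821), a small subunit of complex III, at 324, 242, 307, 288 and 306 TPM in control and 235, 247, 195, 245 and 248 TPM in IF mice. The groups overlapped through control replicate 2 alone (log2 fold change -0.32, SE 0.0757, adjusted p = 0.00454). Sdhd, which anchors complex II in the membrane, fell from 178 ± 10.7 to 157 ± 8.24 TPM (log2 fold change -0.18, SE 0.0594, adjusted p = 0.0341), and Atp5c1, the rotating shaft of ATP synthase, from 324 ± 16.9 to 288 ± 13.1 TPM (log2 fold change -0.17, SE 0.0437, adjusted p = 0.0089). These 2 were named after their values were seen. For the 3 members with the highest mean level, which did not pass, the log2 difference was -0.10 for Cox6c (adjusted p = 0.411), -0.13 for Atp5b (adjusted p = 0.358) and 0.0061 for Uqcrh (adjusted p = 0.951).

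The number of members called in this comparison depended on single libraries and on the groups in the fit. It was 45 without control replicate 2, 9 without control replicate 1, 8 without control replicate 3, and 9 without IF replicate 3, beside 15 with all mice. The share of all genes called in these refits is not given. The counts therefore cannot show whether the members moved apart from all genes. Of the 5 members with the largest falls, all passed without any 1 mouse of either group, but Ndufa5, Ndufa12 and Ndufb4 did not pass when only the 2 groups entered the fit. Fewer members fell in that fit, as counted below with the other alternatives. The main fit shares 1 estimate of spread over groups that varied unequally. The SD of the member sum was 1632 TPM in control, 1362 TPM in IF and 137 TPM in PBMC mice.

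**Figure D2:**
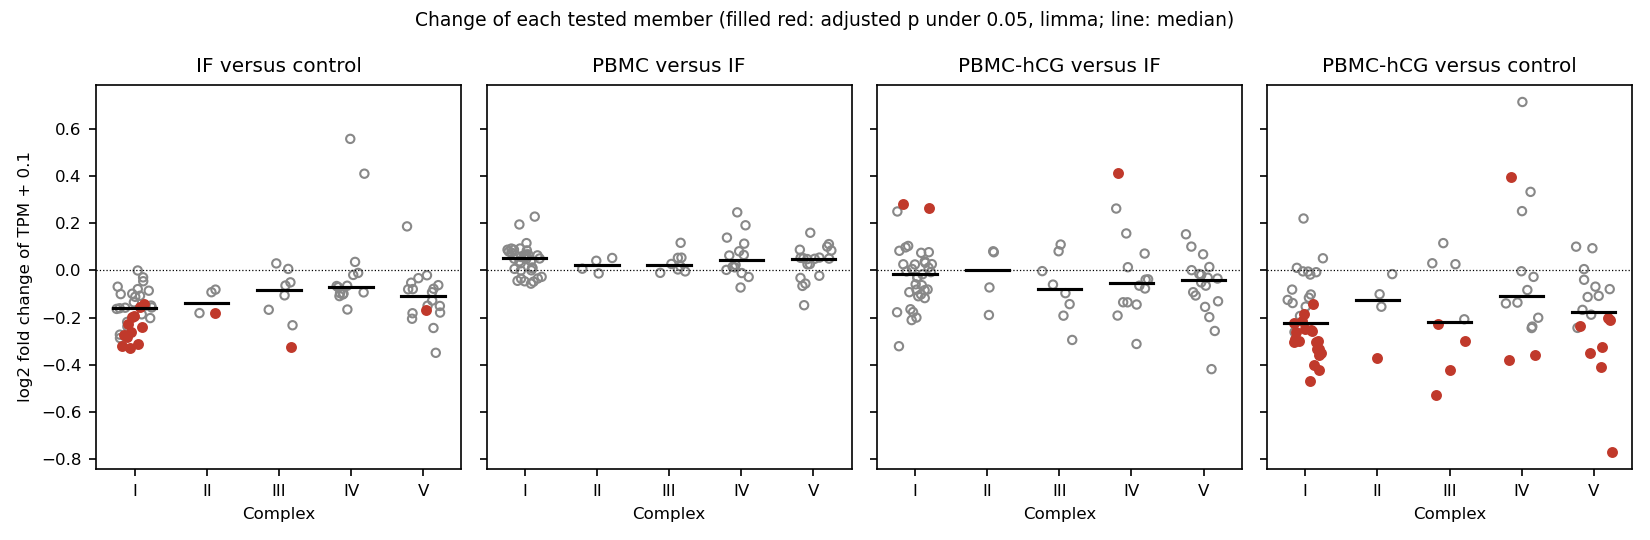
Log2 fold change (of TPM + 0.1) of each tested member, by complex, in 4 comparisons; filled red points have an adjusted p under 0.05 and black lines are medians. In IF versus control all 35 complex I points lie below 0 and 12 are filled, in PBMC versus IF none is filled, and in PBMC-hCG versus control 35 members are filled, of which only Cox7a2l lies above 0.

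The comparison of PBMC with IF asks whether cells cultured without hCG moved these mRNAs in RU486-treated mice. No member passed the test in either direction, and none of all genes tested did (0.0%). At an unadjusted p under 0.05, 4 members were higher (5.06%, beside 4.09% of all genes) and 0 were lower (beside 2.7%). The 4 were Cox7a2l, Ndufc2, Ndufv3 and Uqcrh. The median over members was 0.049, and it was -0.0074 without IF replicate 3. Uqcrh stood at 653, 583, 619.5, 573 and 639 TPM in IF and 641, 669, 655, 674 and 684 TPM in PBMC mice, which overlapped, with a 95% interval of the log2 difference of 0.017 to 0.22 (adjusted p = 0.723). Ndufb5, of the membrane arm, was higher in all 5 PBMC mice than in all 5 IF mice, the only member so separated (1.27% of members, beside 0.577% of all genes).

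In PBMC-hCG versus IF, 3 of 79 members rose (3.80%, beside 7.61% of all genes tested) and 0 fell (0.0%, beside 5.99%). At an unadjusted p under 0.05, 10 members were higher (beside 20.7% of all genes) and 11 lower (beside 14.3%). The risen members were Cox7a2l and 2 accessory subunits of complex I, Ndufc2 and Ndufv3, the same names that led in PBMC versus IF, a comparison that shares the IF mice.

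Cox7a2l (chr17:83501917-83514333) encodes a protein that joins complexes III and IV into supercomplexes. It stood at 350.3, 457, 375, 371 and 284 TPM in control, 427, 334, 415, 338 and 294 TPM in IF, 468, 422, 412, 471 and 360.3 TPM in PBMC and 412, 480.0, 501, 505 and 495 TPM in PBMC-hCG mice. In PBMC-hCG mice 4 of 5 values lay above every IF mouse, while PBMC-hCG replicate 1 lay inside the IF range. Control replicate 2, at 457 TPM, also lay among the PBMC-hCG mice. The level differed by 33.2% from that in IF (log2 fold change 0.41, SE 0.117, adjusted p = 0.0347), and the log2 difference between IF and control was -0.019 (adjusted p = 0.933).

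Ndufc2, another membrane arm subunit, stood at 139, 105, 125, 126 and 111 TPM in control and 120.1, 102, 93.9, 104 and 97.3 TPM in IF mice. In PBMC mice it stood at 124, 119, 115, 130.0 and 115 TPM and in PBMC-hCG mice at 113, 135, 136, 115 and 129 TPM. The IF mice were thus the lowest on average, with IF replicate 1 inside the range of each of the other 3 groups (log2 fold change -0.23, SE 0.0796, adjusted p = 0.0462 for IF versus control and log2 fold change 0.28, SE 0.0796, adjusted p = 0.0353 for PBMC-hCG versus IF). Ndufv3, beside the NADH-binding site, averaged 114 ± 12.0, 94.2 ± 5.89, 108 ± 10.1 and 113 ± 8.68 TPM in control, IF, PBMC and PBMC-hCG mice (log2 fold change -0.27, SE 0.0795, adjusted p = 0.0189 for IF versus control and log2 fold change 0.26, SE 0.0795, adjusted p = 0.0401 for PBMC-hCG versus IF). The fall of Ndufc2 in IF was lost without control replicate 1, 3 or 4 or IF replicate 2, 3, 4 or 5, and that of Ndufv3 without control replicate 3 or IF replicate 5. Against control, the log2 differences of PBMC-hCG were 0.051 for Ndufc2 (95% interval -0.10 to 0.21) and -0.0079 for Ndufv3 (-0.16 to 0.15).

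None of these 3 rises passed without IF replicate 2, 4 or 5, or without PBMC-hCG replicate 2, 3, 4 or 5 (0 members each), although the log2 differences then stayed between 0.23 and 0.41. Without PBMC-hCG replicate 1, 6 members rose and 3 fell. Without IF replicate 3, which had the lowest member sum, 4 rose and 14 fell. Without control replicate 2, which enters only through the shared estimate of spread, 6 fell. With a trend on transcript length removed, 3 rose and 3 fell. Shares of all genes called in these refits are not given.

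**Figure D3:**
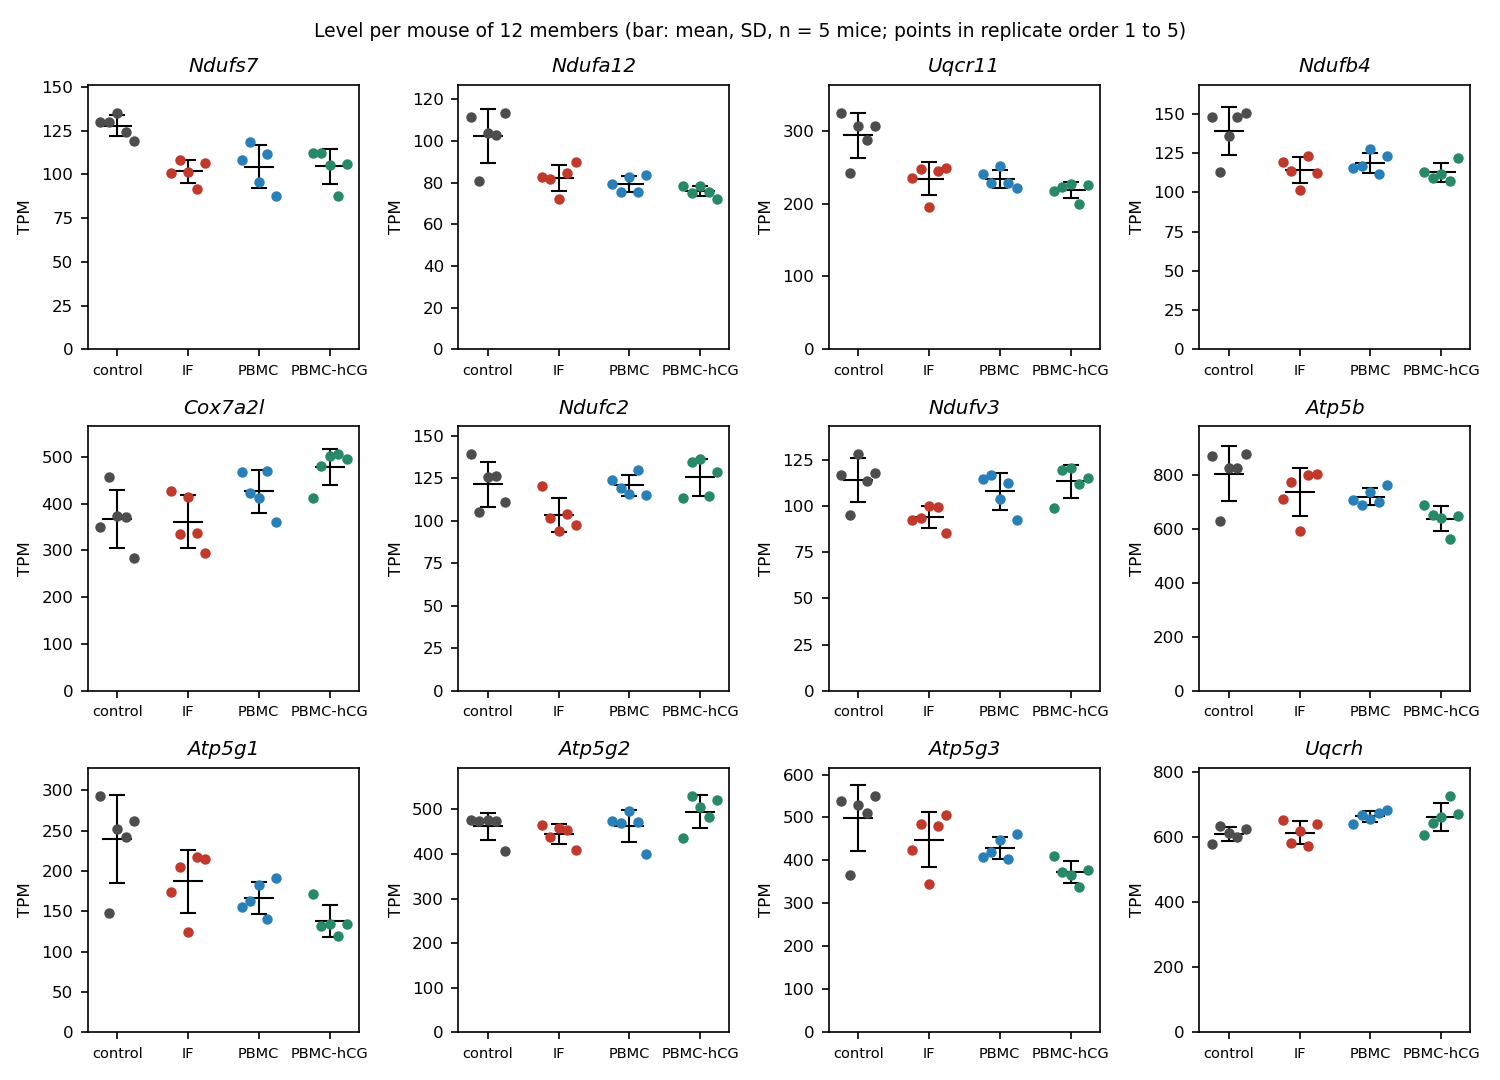
TPM of 12 members in every mouse (points, in replicate order), with the group mean and SD (bars, n = 5). All 5 control values of Ndufs7 lie above the other 15, Cox7a2l reaches its highest mean of 479 TPM in PBMC-hCG, and Atp5g1 has its highest mean in control and its lowest in PBMC-hCG, while Atp5g2 does not show this order.

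Between the PBMC-hCG and PBMC groups, which differ in the hCG of the culture, 0 members passed in either direction, and of all genes tested 0.00535% rose and 0.00535% fell. At an unadjusted p under 0.05, 0 members were higher (beside 8.66% of all genes) and 4 were lower (5.06%, beside 7.51% of all genes): Ndufa11, Ndufb6, Uqcrc1 and Sdhb. All 5 PBMC-hCG mice lay below all 5 PBMC mice for 6 members (7.59%, beside 1.47%). For Ndufb6, a membrane arm subunit, the values were 95.0, 95.4, 104, 91.2 and 101 TPM in PBMC and 85.1, 77.9, 84.9, 74.1 and 87.1 TPM in PBMC-hCG mice, which did not overlap (95% interval of the log2 difference -0.48 to -0.021, adjusted p = 0.305). Uqcrc1, a core subunit of complex III, was likewise apart, at 197 to 216 against 159 to 196 TPM (adjusted p = 0.291).

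Set against control, PBMC-hCG mice had the most members called: 34 of 79 fell (43.0%, beside 11.6% of all genes tested) and 1 rose (beside 20.2%). These mice differed from control in RU486, the injection and the cells together, which this comparison alone cannot tell apart. The IF mice received RU486 alone, so the comparison with IF holds the injection and the cells. Against IF, 0 members fell and 3 rose (beside 5.99% and 7.61% of all genes tested). In PBMC-hCG versus control the median over the members was -0.19, beside 0.076 over all genes. By complex, 20 of 35 members fell in complex I, 1 of 4 in complex II, 4 of 8 in complex III, 2 of 14 in complex IV and 7 of 18 in complex V. In the matrix arm of complex I, 6 of 7 core subunits fell. The largest falls were those of Atp5g1, Uqcrq, Ndufa11, Ndufa12 and Uqcr11, with log2 fold changes of -0.77, -0.53, -0.47, -0.42 and -0.42 and adjusted p of 0.00222, 0.0178, 0.00586, 4.02e-04 and 4.27e-04. Cox7a2l was the gene that rose (log2 fold change 0.39, SE 0.117, adjusted p = 0.0154), a call lost without control replicate 5 (0.31). The fall of Uqcrq was lost without control replicate 5 (-0.45) or PBMC-hCG replicate 4 (-0.46).

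Ndufa12 and Uqcr11 had the smallest adjusted p of these 5. Ndufa12 stood at 79.3, 75.7, 82.6, 75.7 and 83.9 TPM in PBMC and 78.3, 75.0, 78.6, 75.7 and 72.3 TPM in PBMC-hCG mice, the latter below all 5 control mice. Uqcr11 stood at 240.2, 228, 252, 229 and 221 TPM in PBMC and 217, 222, 226, 200.0 and 225 TPM in PBMC-hCG mice, again below all control mice. Both belong to the 6 members without overlap between PBMC-hCG and control (Ndufa1, Ndufa5, Ndufs3 and Ndufs7 being the others), or 7.59% of members beside 5.07% of all genes. Uqcrq, which helps hold cytochrome b, was more variable, at 119, 65.2, 110.0, 108 and 127 TPM in control and 85.2, 70.7, 70.7, 58.7 and 75.5 TPM in PBMC-hCG mice. Here control replicate 2 lay below 4 of the PBMC-hCG mice.

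Of complexes II, IV and V, complex V had the most members that fell, 6 of them among the 12 of its Fo sector and stalk. In complex II, Sdhb, which carries the iron-sulphur clusters of complex II, stood at 167, 136, 171, 169.7 and 173 TPM in control and 142, 128, 123, 111 and 128 TPM in PBMC-hCG mice (log2 fold change -0.37, SE 0.0899, adjusted p = 0.00447). Control replicate 2 again lay within the PBMC-hCG range, while the catalytic flavoprotein Sdha gave a log2 difference of -0.016 (95% interval -0.10 to 0.072). In complex IV the 2 that fell were Cox5a (log2 fold change -0.38, SE 0.126, adjusted p = 0.0278) and Cox7b (log2 fold change -0.36, SE 0.0899, adjusted p = 0.00561), and the abundant Cox6c and Cox7c gave -0.028 (95% interval -0.18 to 0.13) and -0.0038 (-0.14 to 0.13). Of the 5 members of the F1 head, 1 fell, the catalytic Atp5b, which stood at 868, 628, 824, 823 and 875 TPM in control and 688, 652, 639, 563 and 647 TPM in PBMC-hCG mice (log2 fold change -0.33, SE 0.0922, adjusted p = 0.0117). The other 6 complex V members that fell belong to the Fo sector and stalk: Atp5g1, Atp5g3, Atp5k, Atp5o, Atp5pb and Atp5h, with log2 fold changes of -0.77 to -0.20. Sdha, Cox5a, Cox7b, Cox7c and the last 4 of these were named after their values were seen.

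The count of 34 also moved with single libraries: it was 50 without control replicate 2, 22 without control replicate 1, 21 without control replicate 3, 18 without control replicate 5 and 20 without PBMC-hCG replicate 4. The share of all genes called without these mice is not given. In PBMC versus control 7 members fell (8.86%, beside 6.7% of all genes) and 0 rose (beside 12.8%), and 32 fell without control replicate 2. The 7 were Atp5g1, Ndufa12, Uqcr11, Ndufa5, Ndufs7, Ndufs6 and Ndufb4, with log2 fold changes of -0.50, -0.36, -0.32, -0.31, -0.30, -0.24 and -0.22 and adjusted p of 0.0449, 0.00227, 0.00533, 0.0114, 0.0115, 0.0475 and 0.0368. The count was 4 without any 1 of the other 4 control mice, and 4 without PBMC replicate 1, 2 or 4. The comparisons with control share the 5 control mice, and those with IF the 5 IF mice.

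The c-ring of ATP synthase, the rotor through which protons flow, is built from copies of a single protein that Atp5g1, Atp5g2 and Atp5g3 each encode with a different import sequence. The 3 genes are therefore given side by side. Atp5g1 stood at 293, 148, 253, 242 and 262 TPM in control, 174, 206, 125, 217 and 215 TPM in IF, 156, 163, 182, 141 and 191 TPM in PBMC and 171, 132, 134, 119 and 134 TPM in PBMC-hCG mice. In 4 control mice it lay above every PBMC and PBMC-hCG mouse, and control replicate 2 lay among them. The PBMC-hCG level stood -41.3% from the control level (log2 fold change -0.77, SE 0.169, adjusted p = 0.00222), the largest fall among the members, and it also fell in PBMC versus control (log2 fold change -0.50, SE 0.169, adjusted p = 0.0449). The latter call was lost without control replicate 1, 3, 4 or 5 or PBMC replicate 1, 2, 3 or 4, with log2 differences of -0.53 to -0.42, and through the shared spread without IF replicate 1 or 2 or PBMC-hCG replicate 2, 3 or 5.

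Atp5g3 averaged 499 ± 75.7, 449 ± 64.8, 428 ± 25.5 and 373 ± 25.9 TPM in control, IF, PBMC and PBMC-hCG mice and fell between control and PBMC-hCG (log2 fold change -0.41, SE 0.108, adjusted p = 0.00763). Atp5g2, which averaged below Atp5g3 in control and IF mice and above it in PBMC and PBMC-hCG mice, stood at 477, 474, 476, 475 and 406 TPM in control and 437, 530.2, 506, 482 and 520.3 TPM in PBMC-hCG mice. These ranges overlapped, and the 95% interval of the log2 difference was -0.031 to 0.23 (adjusted p = 0.268). The ratio of Atp5g1 to Atp5g2 within a mouse ran from 0.312 to 0.647 in control and from 0.247 to 0.391 in PBMC-hCG mice. Its log2 difference was -0.87, with p = 0.0159 in a two-sided exact permutation test over 252 arrangements and 0.0857 after adjustment over the 18 ratio tests made, so that no ratio passed. These ratio tests were added after the values had been seen.

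The deposited levels can be set beside the promoters of these genes, since factors such as NRF1, the ETS family member GABP and YY1 are known to bind at many respiratory chain promoters. RefSeq windows (GRCm38.p6, 250 bases before to 50 after the start) were found for 67 of 80 members. The letters CGCATGCG (NRF1 core, the same on both strands) were in the windows of 13.4% of these genes and of 2.07% of all 27025 genes in the table. ACTTCCGG (ETS, or CCGGAAGT on the other strand) was in 7.46% and 4.31%, and AAGATGGC (YY1, or GCCATCTT on the other strand) in 14.9% and 3.19%. Any of the 3 was found for 22 of 67 members. Of the members called lower in PBMC-hCG versus control that had a window, 4 of 30 held the NRF1 core, as did 5 of 36 tested members not called lower. Below, the 250 bases before the start are shown, 5′ to 3′ on the gene's strand, for 2 members that fell and for 2 c-ring genes, of which Atp5g1 fell and Atp5g2 did not pass the test. Capitals mark an NRF1 core or an ETS match, and the Atp5g1 stretch holds none of the 3.
Uqcr11, chr10:80406822-80407071, minus strand, ETS match at -66: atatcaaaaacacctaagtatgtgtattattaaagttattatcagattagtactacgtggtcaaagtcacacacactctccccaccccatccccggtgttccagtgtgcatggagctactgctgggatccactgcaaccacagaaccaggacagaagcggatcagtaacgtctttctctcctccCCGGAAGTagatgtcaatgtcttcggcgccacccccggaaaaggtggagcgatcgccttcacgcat
Ndufa11, chr17:56717512-56717761, plus strand, NRF1 core at -59: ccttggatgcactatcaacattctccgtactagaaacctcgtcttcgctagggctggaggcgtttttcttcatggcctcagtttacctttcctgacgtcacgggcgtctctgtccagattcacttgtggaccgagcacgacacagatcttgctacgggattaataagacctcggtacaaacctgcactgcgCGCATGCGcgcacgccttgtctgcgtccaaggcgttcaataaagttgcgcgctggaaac
Atp5g2, chr15:102671048-102671297, minus strand, NRF1 core at -41: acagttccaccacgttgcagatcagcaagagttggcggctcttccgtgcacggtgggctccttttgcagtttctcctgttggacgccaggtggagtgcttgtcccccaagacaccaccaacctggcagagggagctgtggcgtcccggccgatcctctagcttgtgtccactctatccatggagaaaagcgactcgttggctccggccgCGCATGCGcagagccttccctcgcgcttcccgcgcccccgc
Atp5g1, chr11:96075632-96075881, minus strand, no match: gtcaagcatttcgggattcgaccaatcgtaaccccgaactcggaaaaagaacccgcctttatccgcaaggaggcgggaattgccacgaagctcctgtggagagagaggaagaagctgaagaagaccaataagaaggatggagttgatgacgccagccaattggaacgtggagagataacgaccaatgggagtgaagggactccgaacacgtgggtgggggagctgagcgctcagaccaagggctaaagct
The NRF1 core of Uqcr11 begins 5 bases before the start and runs past the end of the stretch shown. Thus a promoter with the NRF1 core stood before a gene that fell in PBMC-hCG versus control (Ndufa11, from 36.6 ± 4.77 to 26.4 ± 3.46 TPM) and before a gene that did not pass (Atp5g2). A match of letters is a description of the window and was not tested as a binding site.

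The same mice were low for most members at once. Control replicate 2 was the lowest of its group for 67 of 80 members, IF replicate 3 for 60 and PBMC-hCG replicate 4 for 56, while in the PBMC group no mouse was lowest for more than 24. Each of these 3 mice also had the lowest sum of cell cycle genes in its group, at 141, 227 and 237 TPM. In each the 15 genes of that list were above 0. This was not particular to cell cycle genes. The 3 mice were also lowest in their groups for the sums of glycolysis, TCA cycle, carrier, assembly factor, mitochondrial ribosomal protein and stroma genes. Glycolysis sums were 3034, 2754 and 2652 TPM. Cytosolic ribosomal protein sums were the highest of the group in control replicate 2 (216300 TPM) and IF replicate 3 (209424 TPM). That of PBMC-hCG replicate 4 (216464 TPM) was not. The part of these lists in the result was not tested. The same 3 mice were lowest in their groups for Atp5b, at 628, 590 and 563 TPM, and for Uqcrq, at 65.2, 60.5 and 58.7 TPM.

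**Figure D4:**
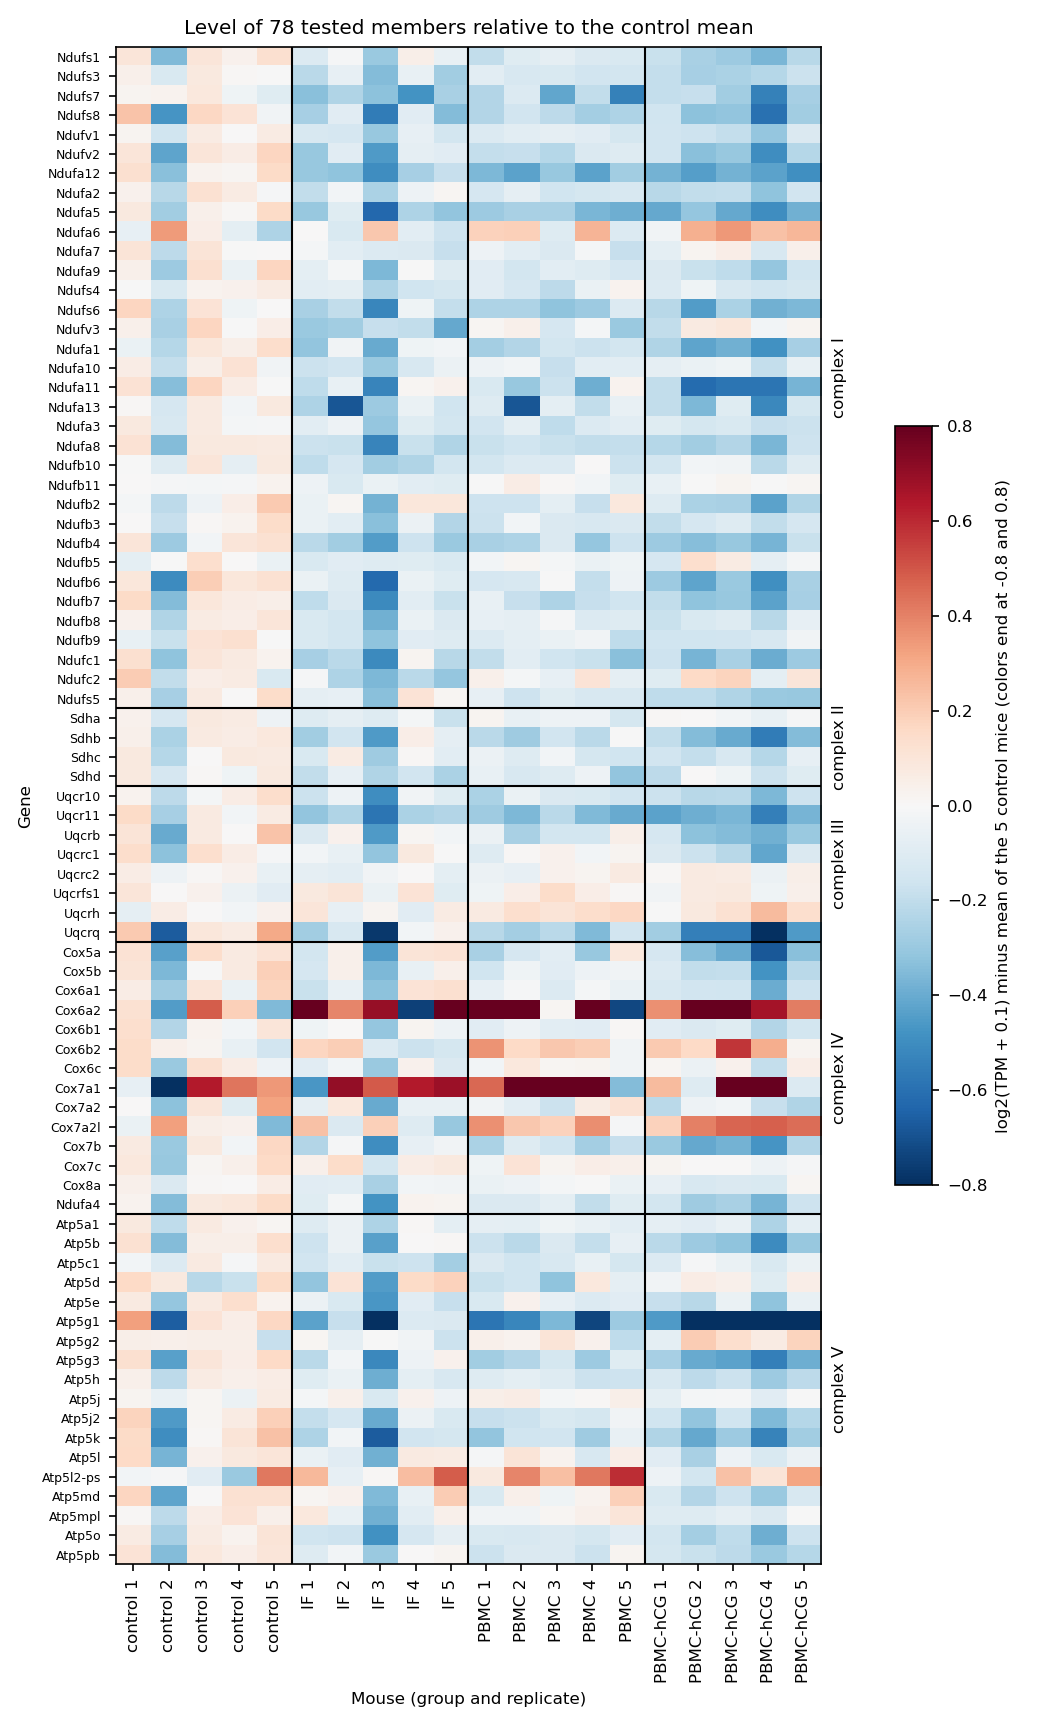
Level of 78 of the 79 tested members (rows, by complex) in each of the 20 mice (columns), as log2(TPM + 0.1) minus the mean of the 5 control mice; blue is lower and red higher. Control replicate 2, IF replicate 3 and PBMC-hCG replicate 4 form blue columns, and Cox7a2l is red across the PBMC-hCG mice while Atp5g1 is blue in all 15 treated mice.

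The counts of the lists below stand beside shares of all genes tested. Of these, 13.4% rose and 8.53% fell in IF versus control, and 20.2% and 11.6% in PBMC-hCG versus control. In PBMC-hCG versus IF, 7.61% rose and 5.99% fell. Of 13 subunits encoded by mitochondrial DNA, 0 fell and 0 rose in IF versus control, with a median log2 fold change of 0.0014 (1 was lower at an unadjusted p under 0.05). In PBMC-hCG versus control 1 rose, COX1 of complex IV (log2 fold change 0.26, adjusted p = 0.0173), and 1 fell, ND1 of complex I (log2 fold change -0.22, adjusted p = 0.0336). Their 13 levels summed to 42752 to 49884 TPM in control and 48279 to 53214 TPM in PBMC-hCG mice. These transcripts were read from libraries selected for poly(A).

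Of 10 further nuclear chain genes tested, 0 passed in IF versus control (3 were lower at an unadjusted p under 0.05), and 2 fell in PBMC-hCG versus IF. Cycs, cytochrome c, averaged 52.5 ± 17.6 TPM in control, 45.2 ± 12.7 TPM in IF, 37.5 ± 13.5 TPM in PBMC and 24.0 ± 6.56 TPM in PBMC-hCG mice (log2 fold change -0.90, adjusted p = 0.0383, PBMC-hCG versus IF). This was a larger difference than any member showed in that comparison. Cyc1, the cytochrome of complex III that reduces it, was the other (log2 fold change -0.31, adjusted p = 0.0405, named after its values were seen). Cox4i1, the main form of its subunit, gave log2 fold change 0.095, adjusted p = 0.176.

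Assembly factors, which insert cofactors and join subunits, fell for 8 of 49 genes in IF versus control (beside 8.53% of all genes tested). In PBMC-hCG versus control 14 of 49 fell and 3 rose (beside 11.6% and 20.2%). Lyrm7, a chaperone of the complex III iron-sulphur protein, averaged 3.4 ± 0.553 TPM in control and 1.77 ± 0.361 TPM in IF (log2 fold change -0.91, adjusted p = 0.00126). In PBMC-hCG versus IF 4 rose and 1 fell (beside 7.61% and 5.99% of all genes tested). The largest rise was that of Nubpl, which serves iron-sulphur assembly of complex I (log2 fold change 0.49, adjusted p = 0.0292). The fall was that of Sco2, which delivers copper to complex IV (log2 fold change -0.34, adjusted p = 0.0325). Of 78 mitochondrial ribosomal protein genes, 21 fell and 2 rose in IF versus control, with a median of -0.14, and 36 fell and 2 rose in PBMC-hCG versus control. Of 80 cytosolic ribosomal protein genes, 0 fell and 0 rose in IF versus control (limma, 2 lower and 0 higher at an unadjusted p under 0.05). In PBMC-hCG versus IF 8 of these rose and 0 fell (beside 7.61% and 5.99% of all genes tested), with a median of 0.12. At an unadjusted p under 0.05, 36 of the 80 were higher there (beside 20.7% of all genes) and 1 lower (beside 14.3%). In PBMC-hCG versus control 11 rose and 1 fell (beside 20.2% and 11.6%).

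Among 23 regulators of mitochondrial biogenesis tested, 4 rose and 4 fell in IF versus control, where 13.4% of all genes rose and 8.53% fell. The coactivator Ppargc1b fell from 1.08 ± 0.102 to 0.458 ± 0.0904 TPM (log2 fold change -1.10, adjusted p = 8.52e-05) and the nuclear receptor Esrra also fell (log2 fold change -0.32, adjusted p = 0.0164), while Gabpa, the DNA-binding GABP subunit, rose (log2 fold change 0.20, adjusted p = 0.0127). Exons of Gabpa overlap those of the member Atp5j on the opposite strand. For Ppargc1a, Nrf1 and Tfam the log2 differences were -0.10, 0.24 and -0.04, with adjusted p of 0.878, 0.0865 and 0.699. In PBMC-hCG versus IF the PGC-1-related coactivator Pprc1 fell (log2 fold change -0.95, adjusted p = 0.0287) and Tfb1m, which modifies mitochondrial ribosomal RNA, rose (log2 fold change 0.55, adjusted p = 0.0483).

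Upstream of the chain, 4 of 23 genes of the TCA cycle and pyruvate dehydrogenase fell and 1 rose in IF versus control. Of all genes tested 8.53% fell and 13.4% rose there, which also stands beside the other lists of this paragraph. Idh2, which makes NADPH in the matrix, fell from 145 ± 11.8 to 96.0 ± 8.56 TPM (log2 fold change -0.59, adjusted p = 1.05e-05), and Pdk4, a kinase that inhibits pyruvate dehydrogenase, rose (log2 fold change 1.19, adjusted p = 0.0236). Dhodh, which passes electrons from pyrimidine synthesis to ubiquinone, fell from 17.3 ± 1.84 to 9.47 ± 1.28 TPM (log2 fold change -0.86, adjusted p = 1.21e-05), and 6 of its list of 30 carriers and ubiquinone-linked genes fell while 2 rose. In glycolysis 6 of 21 genes fell and 3 rose, and in PBMC-hCG versus IF hexokinase 2, Hk2, fell from 17.8 ± 7.32 to 7.54 ± 1.91 TPM (log2 fold change -1.17, adjusted p = 0.0292).

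Markers of tissue parts moved beside the members. In IF versus control, where 13.4% of all genes rose and 8.53% fell, 7 of 8 endothelium genes rose and 0 fell. Of 11 epithelium genes 8 rose and 2 fell, Cldn3 and Foxa2, of 10 stroma genes 2 rose and 2 fell, and of 10 smooth muscle genes 0 rose and 2 fell. Of 6 nuclear-retained RNAs, whose share can follow RNA quality, 2 rose and 0 fell, Meg3 (log2 fold change 0.84, adjusted p = 7.33e-05) and Neat1, and in PBMC-hCG versus control 4 rose and 0 fell. Their sum was 628 to 1002 TPM in control, 885 to 1126 TPM in IF and 785 to 1164 TPM in PBMC-hCG mice. The smooth muscle sum was 6713 to 12042 TPM in control, 6741 to 8137 TPM in IF and 5443 to 6925 TPM in PBMC-hCG mice, and the endothelium sum 416 to 511 TPM in control against 577 to 658 TPM in IF. The 8 striated muscle genes above 0 in every mouse included Acta1 (log2 fold change -1.53, adjusted p = 1.64e-04 for IF versus control), while Myh1, Myh2, Myh4 and Pvalb were at 0 in every mouse. Of blood cell markers, 0 of 14 T, B and NK cell genes and 0 of 13 myeloid genes passed in PBMC-hCG versus IF (limma, with 1 higher and 0 at an unadjusted p under 0.05), and 2 of 5 red cell genes fell. The part of these markers in the members' changes was not tested.

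Transcript length and shared sequence touch how these levels were read. The members' annotated transcripts are short, with a median of 581 bases in the 79 with a length, beside 1491 bases over the 14940 of 18706 tested genes with a length. Among genes over 30 TPM, 11.1% of those in the shortest of 5 length classes fell in IF versus control and 4.63% of those in the longest, and in PBMC-hCG versus control 20.6% and 6.69%. Since under 80% of the genes tested had a length, this check over all genes is void, and its values are given as a description. With the trend on length removed, 19 members fell in IF versus control and 47 in PBMC-hCG versus control. That fit held only genes with a length and also recentred each library. The median over its genes shifted by -0.0711 (log2) in PBMC-hCG versus control, so the change in counts cannot be assigned to length. Exons of 23 of 78 members found in the annotation overlap a gene on the opposite strand, among them Ndufa11, Ndufa3, Ndufb6 and Cox6c. Those of 5 overlap an annotated gene on the same strand, where strand cannot separate reads: Atp5o, Ndufb9, Ndufb8, Ndufb2 and Atp5g2. The libraries kept strand, but whether the quantification used it is not given in the sources used here. Many members also have processed pseudogenes, so reads may have been shared between copies.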

How the data were processed

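Libraries were made from poly(A)-selected uterine RNA with a stranded kit, 5 mice per group. Per the labels and the study's methods, the authors trimmed reads with Trimmomatic, aligned them to mm10 with HISAT2, assembled transcripts with StringTie and deposited TPM per gene. Read depth is unknown and totals were 999989 to 999999 TPM, so no counting interval can be given. TPM was tested as log2(TPM + 0.1) with limma 3.58.1 (R 4.3.3, variance trend, all 4 groups in 1 fit) on the 18706 genes above 0 in all libraries, with Benjamini-Hochberg adjustment over all of them and a threshold of 0.05. The study's own test needs read counts and was not used. Fold changes are on the log2(TPM + 0.1) scale, which understates those of low genes. Members, lists and the rule for named genes (extremes of level, isoform pairs, up to 5 largest called changes per comparison and direction, separated members, leading genes of each list) were chosen with earlier results of these data known. On simulated data the fit recovered 26 of 66 changes of 0.5 log2, 52 of 67 of 1.0 and 63 of 67 of 2.0. It made 4 false calls. The simulated noise was independent between genes and had the same spread in every group. Shifts of whole libraries and unequal spread between groups were thus not covered. The values of 1 complex I member are not reported here. Alternatives covered the pseudocount, filters, scalings, length, the variance model, pairing and left-out mice. Annotation of exons and lengths was GENCODE, and promoter windows were from RefSeq.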

Additional observations from a re-analysis of the deposited data

Results flagged for a closer look

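In each group of 5, the lowest and highest mouse was compared with its nearest neighbour, relative to the range of the group, for 36 sums and member levels (144 groups). A mouse stands apart by chance in about 1 in 20 groups, and 25 did here, 10 of them control replicate 2. The sums contain the members and a low library lowers many of them at once. The 144 groups are thus not independent, and the count cannot be judged against that rate. All were the lowest of their group.

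Control replicate 2 lay apart for the sum of all members (16939 TPM, nearest 20132), complex I (4667 TPM), complex II (621 TPM), complex IV (4354 TPM) and complex V (5404 TPM). It also lay apart for Sdhb (136 TPM), Sdhc (161 TPM), Atp5b (628 TPM), Atp5g3 (366 TPM) and Ndufb6 (73.6 TPM). IF replicate 3 lay apart for the sum of all members (15853 TPM, nearest 18268), complex I (4288 TPM), complex III (1758 TPM) and complex IV (4205 TPM), and for Cox6b1 (461 TPM), Uqcr11 (195 TPM) and Ndufb6 (67.8 TPM). PBMC-hCG replicate 4 lay apart for complex I (4460 TPM), complex II (601 TPM), Cox6a1 (332 TPM) and Ndufs7 (87.7 TPM).

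Other mice stood apart for single genes, with the lowest value in each case. These were IF replicate 1 for Cox7a1 (2.21 TPM), control replicate 5 for Atp5g2 (406 TPM), PBMC replicate 5 for Atp5g2 (399.7 TPM) and PBMC-hCG replicate 1 for Cox7a2l (412 TPM).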

How the results depend on the processing

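Limits: depth is unknown, and all differences are relative to each library's total. Another scaling moved the median of all genes by at most 0.0716 (log2), and no called result reversed. The median over members changed sign in PBMC versus IF without IF replicate 3 (-0.0074) and in PBMC-hCG versus IF with quantile normalization (0.037, beside -0.038 without it).

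With median-of-ratios rescaling, members lower were 26 (IF versus control), 15 (PBMC versus control) and 55 (PBMC-hCG versus control); members below without overlap were 12, 7 and 27, and members above 0 in PBMC versus IF and 0 in PBMC versus control. With quantile normalization, 35 (IF versus control) and 12 (PBMC versus control) were lower, 11 (PBMC-hCG versus IF) and 2 (PBMC-hCG versus control) higher; below without overlap were 16, 9, 12 and, in PBMC-hCG versus PBMC, 3, and above 4 in PBMC-hCG versus IF and 0 in PBMC versus IF and PBMC versus control. With the length trend removed, 3 were lower in PBMC-hCG versus IF, 19 (PBMC-hCG versus control) and 6 (PBMC versus control) below without overlap, and 2 (PBMC versus IF) and 0 (PBMC versus control) above. Without a filter, 0 were higher in PBMC-hCG versus IF and 4 lower in PBMC versus control, as without a variance trend (4). With 2 groups in the fit, 4 were lower in IF and 4 in PBMC versus control, and 2 higher in PBMC-hCG versus control. Rescaled without ribosomal protein and mitochondrially encoded genes, an alternative chosen after seeing the data, 3 were higher in PBMC-hCG versus control, 2 above without overlap in PBMC-hCG versus IF, and 0 above and 0 below in PBMC versus control. The cause was not tested. Shares of all genes called under each alternative, left-out mice included, are not given, so these counts do not set the members apart from all genes.

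Correlations between same-numbered mice ran from -0.25 to 0.46 and were not all over 0.1, so the numbers were not taken as pairs; with the replicate block 1 member was higher in PBMC versus control and 2 in PBMC-hCG versus control.

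Without any 1 mouse, members lower ranged from 8 to 45 (IF versus control), 4 to 32 (PBMC versus control), 18 to 50 (PBMC-hCG versus control), 0 to 14 (PBMC-hCG versus IF) and 0 to 0 (PBMC versus IF, PBMC-hCG versus PBMC). Members higher ranged from 0 to 6 (PBMC-hCG versus IF), 0 to 2 (PBMC-hCG versus control) and 0 to 1 (PBMC versus control). Below without overlap were 4 to 41, 1 to 43, 6 to 52, 0 to 20 and, in PBMC-hCG versus PBMC, 6 to 24, and above 1 to 5 (PBMC versus IF), 1 to 2 (PBMC versus control), 0 to 6 (PBMC-hCG versus IF), 0 to 1 (PBMC-hCG versus PBMC) and 0 to 3 (PBMC-hCG versus control). For the named members, 174 values, each for a member in a comparison, were refitted under each alternative. Over all these refits 99 lost and 58 gained significance, and 5231 kept their side of the threshold. The refits include comparisons with no member called. They also include left-out mice of groups outside a comparison, which leave its log2 difference unchanged.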
